A study of Homo sapiens with 6 samples.

Results

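The genes described here encode the nuclear subunits of the mitochondrial respiratory chain and of ATP synthase, together with cytochrome c. They were chosen by symbol alone (names beginning NDUFA, NDUFB, NDUFC, NDUFS or NDUFV with a number, SDHA to SDHD, UQCR, COX4 to COX8 and ATP5, plus CYC1 and CYCS), and 96 of the 27968 genes listed matched. Of these, 90 belong to a complex or are a paralog of such a subunit, and the other 6 are 3 antisense RNAs, 2 readthrough genes and 1 pseudogene that share the names. RNA was sequenced from T47D, a human luminal breast cancer cell line that expresses the estrogen receptor. The control group received a control siRNA and the other group an siRNA directed at HOTAIR-N, 1 form of HOTAIR, a long noncoding RNA from the HOXC cluster. Each group has 3 libraries from independent transfections, all collected 48 hours after transfection with a lipid reagent in medium with 10% serum.

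The respiratory chain passes electrons from NADH (complex I) and succinate (complex II) through coenzyme Q to complex III, from there through cytochrome c to complex IV, and so to oxygen. Complexes I, III and IV pump protons across the inner mitochondrial membrane, and ATP synthase (complex V) uses the returning protons to make ATP. Each complex except complex II combines subunits encoded in the nucleus with subunits encoded in mitochondrial DNA, and several nuclear subunits exist as paralogs that tissues use in different proportions. None of the 13 mitochondrially encoded subunits on the list used has a row in the gene tables (0 matched), and they are not analysed here.

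The libraries held 31777001 to 36707169 expected counts. HOTAIR, for which the tables count all annotated transcripts of the gene together, had 577, 540 and 581 counts with control siRNA and 206, 185 and 196 with HOTAIR-N siRNA. The level left was 34.7% of control (log2 fold change -1.53, adjusted p 2.11e-09 by edgeR), and all 3 knockdown libraries were below all 3 controls. The 10 luminal markers checked were present in every library. Their summed level was 9102.69 to 10322.63 TPM, a level corrected for transcript length, with control siRNA and 8244.53 to 9110.69 with HOTAIR-N siRNA. Most of this sum was KRT8, KRT18 and KRT19, and single luminal markers moved apart. The estrogen receptor gene ESR1 fell to 32.1% and PGR to 36.4% of control, and KRT18, EPCAM, GATA3 and FOXA1 were also called lower. CDH1 rose 1.86-fold and TFF1 3.07-fold, while KRT8 and KRT19 were not called. The 6 basal or myoepithelial markers summed to 22.46 to 24.81 against 86.5 to 94.94 TPM, nearly all of it ACTA2, whereas KRT5 and KRT14 stayed under 0.1 TPM on average. MYLK and OXTR of this list were called lower, at 73.5% and 36.8% of control, and TP63 was not called. The 6 fibroblast markers summed to 9.01 to 10.26 against 9.05 to 10.11 TPM and the 6 leukocyte markers to 2.98 to 3.18 against 3.83 to 4.93 TPM. Single fibroblast markers also moved apart. COL1A1, most of that sum, and COL3A1 were called lower, at 83.6% and 30.2% of control. VIM rose 9.03-fold, from a mean of 0.137 to 1.31 TPM. The part of these shifts in the results below was not tested. In RNA from whole cultures, fewer cells of a kind and less RNA per cell cannot be told apart.

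The oxidative phosphorylation genes changed little after the HOTAIR-N siRNA, against a transcriptome in which most genes moved. Of the 96 genes, 89 had enough counts to be tested, and 38 of these (42.7%) were called at an edgeR adjusted p under 0.05, against 71.1% of all 14919 tested genes. By direction, 24 were higher, where 36.2% of all tested genes were higher, and 14 were lower, where 34.8% were lower. The split depends on how the libraries are scaled. It was 22 higher and 16 lower with DESeq2 size factors, where 35.4% of all tested genes were higher and 35.6% lower. With upper-quartile scaling it was 39 and 8, beside 40.3% and 31.2% of all tested genes, and with library totals alone 47 and 7, beside 43.4% and 28.6%. The gap to all genes in the share called also depends on the setting: it was 60.7% against 72% with library totals, 40.4% against 58.3% with DESeq2 and 41.6% against 50.9% without a filter. The 3 libraries of each group did not overlap in 43 of the 89 genes, against 73.4% of all tested genes.

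The sizes of the changes depended less on scaling than the calls did. A change within 1.2-fold was measured for 72 of the 89 genes (80.9%), against 37.4% of all tested genes, and for 66 of them with library totals alone. The median size of the log2 fold change, whatever its sign, was 0.107 among these genes and 0.377 among all tested genes. The oxidative phosphorylation genes were also more abundant, with a median of 117 CPM (library-scaled counts) against 24.7, and had a smaller median SE of the log2 fold change, 0.0498 against 0.0705. The median signed log2 fold change was 0.04, beside 0.02 over all tested genes. Changes of at least 1.5-fold were seen for 2 of these genes, COX7A2 and CYCS, and of at least 2-fold for COX7A2 alone.

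**Figure D1:**
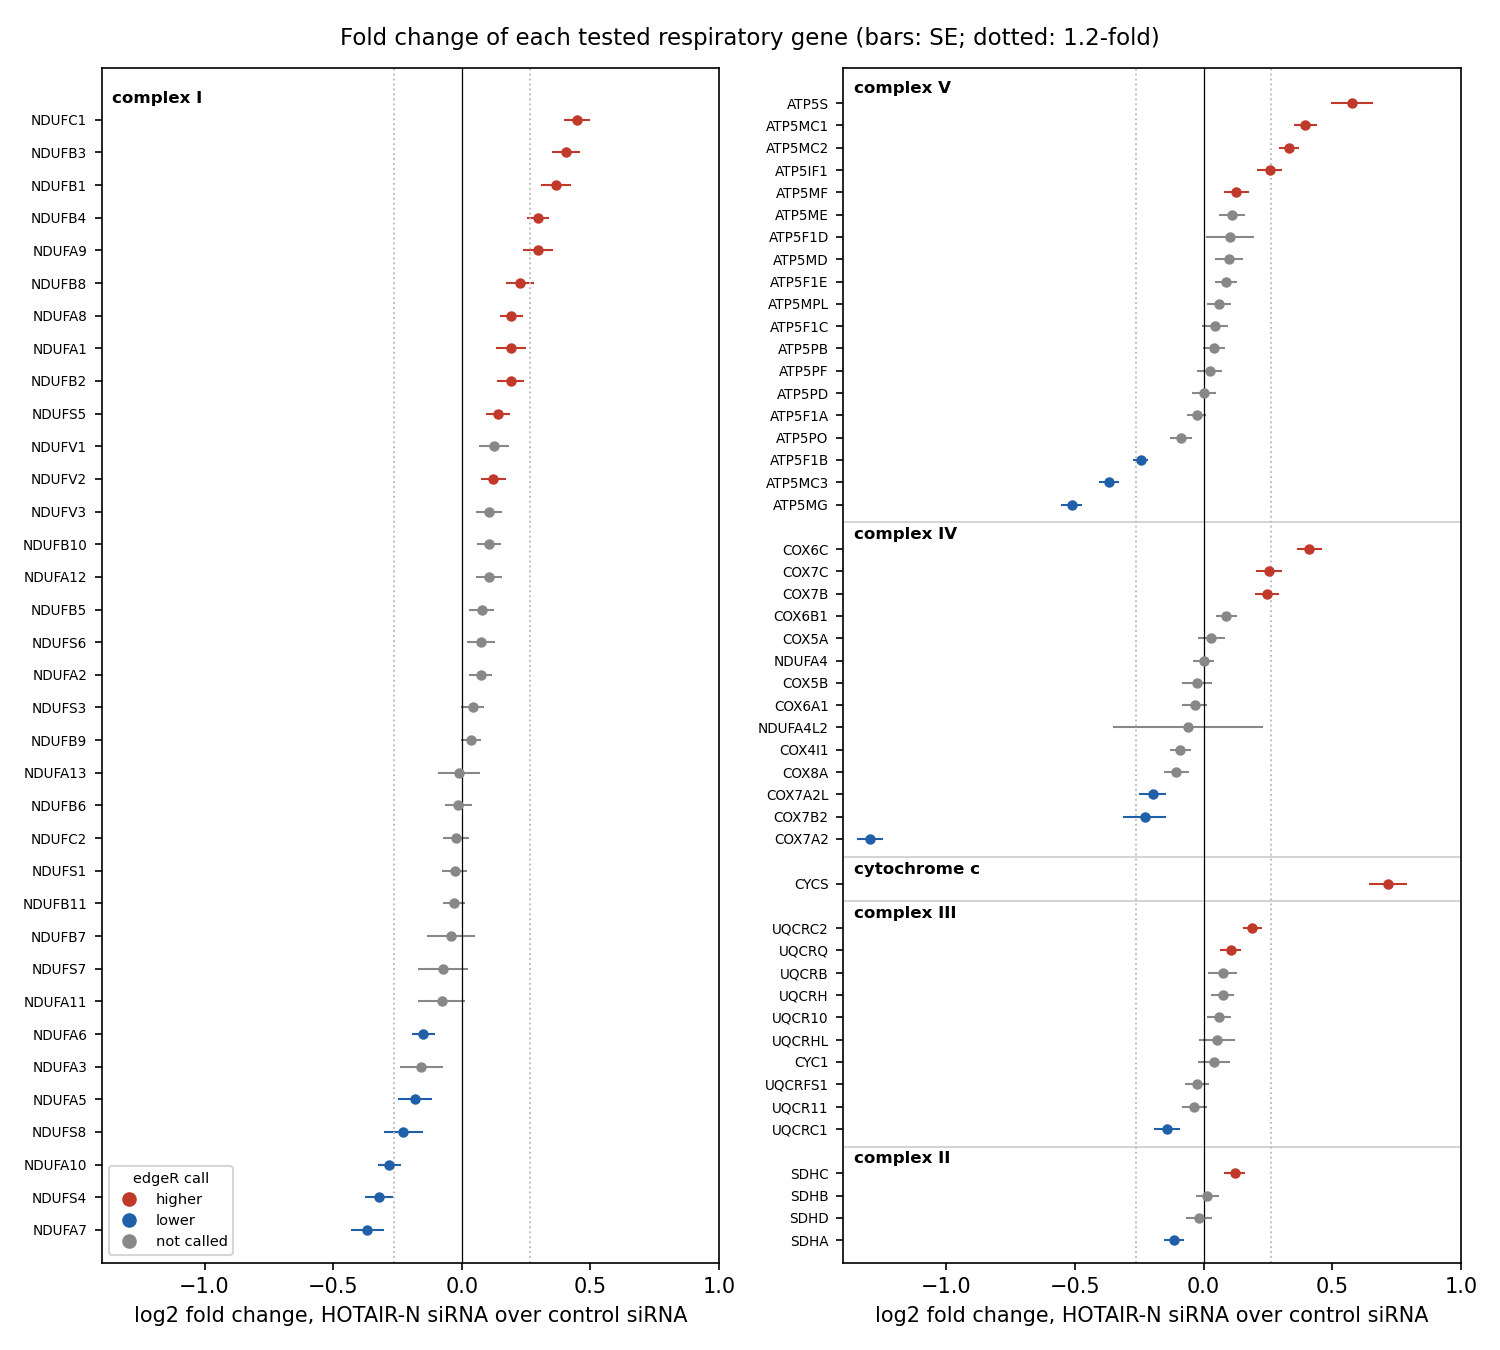
Log2 fold change (x axis, HOTAIR-N siRNA over control siRNA) of 83 of the 84 tested subunit and paralog genes, one row per gene grouped by complex, with SE bars and dotted lines at 1.2-fold. Most points lie between the dotted lines, COX7A2 lies alone at -1.3, and CYCS has the highest value at 0.72.

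Complex I takes electrons from NADH. All 36 of its genes that matched the symbols were tested, and 12 were higher, 6 lower and 18 not called. Their median log2 fold change was 0.07 (0.17 with library totals alone).

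The core subunits carry the flavin and the iron-sulfur clusters or bind coenzyme Q. NDUFV2, which holds an iron-sulfur cluster next to the flavin subunit, rose by 0.12 on the log2 scale (adjusted p 0.0389), a call that ended with DESeq2 size factors (adjusted p 0.0641), with DESeq2 (0.122), without a filter (0.0998) and without control 1, control 3, HOTAIR-N 1 or HOTAIR-N 3. NDUFS8, another iron-sulfur protein, fell by 0.23 (adjusted p 0.018), but its groups overlapped and the call ended with library totals (adjusted p 0.162), with upper-quartile scaling (0.0663) and without control 1, control 3 or HOTAIR-N 3. The log2 fold changes of 4 further core subunits were 0.13 for NDUFV1, which binds NADH and the flavin, -0.03 for the large subunit NDUFS1, 0.04 for NDUFS3 and -0.07 for NDUFS7, and these were not called. NDUFS7 had 33.09 CPM in control 2 and 32.94 in HOTAIR-N 3, while its other 4 libraries held 38.8 to 43.03 CPM. Without control 2 its log2 fold change was -0.19 and called (adjusted p 0.0381), and NDUFV1 was called higher without control 1 (0.16, adjusted p 0.0455). With library totals NDUFV1 and NDUFS3 were called higher (adjusted p 0.00676 and 0.0141).

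The accessory subunits, of which 29 matched the symbols, surround the core and are needed for assembly and stability. Of these, 10 were higher, 5 lower and 14 not called. NDUFC1, a small membrane subunit, had 47.71, 49.71 and 48.54 CPM with control siRNA and 63.83, 66.91 and 68.19 CPM with HOTAIR-N siRNA, a 1.36-fold rise with no overlap (log2 fold change 0.45, SE 0.0501, adjusted p 6.15e-06). NDUFB3, in the membrane arm, had 41.97, 45.92 and 44.56 CPM against 58.87, 55.74 and 60.66 CPM, a 1.32-fold rise (adjusted p 3.83e-05). The other 8 that rose were NDUFB1, NDUFB4, NDUFA9, NDUFB8, NDUFA8, NDUFA1, NDUFB2 and NDUFS5, with log2 fold changes from 0.37 for NDUFB1 down to 0.14 for NDUFS5. The calls of NDUFA1 and NDUFS5 ended without control 1 or HOTAIR-N 1, and that of NDUFS5 also with DESeq2 and without control 3.

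Of the accessory subunits that fell, NDUFA7 had 21.74, 21.03 and 22.25 CPM with control siRNA and 16.93, 17.62 and 15.85 with HOTAIR-N siRNA. It fell to 77.5% of control (log2 fold change -0.37, SE 0.0638, adjusted p 0.000242). NDUFS4, a subunit needed for a stable NADH-binding module, had 64.02, 70.28 and 65.41 CPM against 53.6, 51.42 and 54.57 CPM, or 79.9% of control (adjusted p 0.000175). NDUFA10 fell to 82.3% of control (adjusted p 9.38e-05), and NDUFA5 and NDUFA6 fell by 0.18 and 0.15 on the log2 scale. In each of these 5 genes all knockdown libraries were below all controls. The calls of NDUFA5 and NDUFA6 ended with library totals (adjusted p 0.244 and 0.306) and with upper-quartile scaling, and that of NDUFA5 without control 2 or HOTAIR-N 1.

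Complex II, which is also an enzyme of the citric acid cycle, had all 4 subunits within 1.2-fold, with 1 higher, 1 lower and 2 not called. The flavoprotein SDHA had 314.3, 296.9 and 312.1 CPM with control siRNA and 287.2, 285 and 281.1 with HOTAIR-N siRNA (log2 fold change -0.11, adjusted p 0.0197). The membrane anchor SDHC had 307.8, 328.5 and 310.6 CPM against 339.7, 338.6 and 351 CPM (0.12, adjusted p 0.0172). Neither gene's groups overlapped. The SDHA call ended with library totals (adjusted p 0.73), with upper-quartile scaling (0.219) and without control 1, control 3, HOTAIR-N 1 or HOTAIR-N 2. The SDHC call ended with DESeq2 (adjusted p 0.0707), without a filter (0.0533) and without control 1, control 3 or HOTAIR-N 3. SDHB, the iron-sulfur subunit, and SDHD, the other anchor, had log2 fold changes of 0.01 and -0.02 and were not called, although SDHB was called higher with library totals (adjusted p 0.029).

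Complex III hands electrons to cytochrome c. With the main scaling, TMM, all of its 10 genes stayed within 1.2-fold, with 2 higher, 1 lower and 7 not called. Their median log2 fold change was 0.0565 (0.155 with library totals alone). UQCRC2, a core protein of the matrix side, had 393.9, 411.9 and 403 CPM with control siRNA and 464.9, 447.3 and 466.3 with HOTAIR-N siRNA, a 1.14-fold rise without overlap (adjusted p 0.00062). Its partner core protein UQCRC1 had 185.6, 166.4 and 179.4 CPM against 164.1, 163.4 and 154 CPM (log2 fold change -0.14, adjusted p 0.0223), a call that ended with library totals (adjusted p 0.451), with upper-quartile scaling (0.151) and without control 1, control 3 or HOTAIR-N 3. The accessory subunit UQCRQ rose by 0.11 (adjusted p 0.0353), a call that ended with DESeq2 size factors (adjusted p 0.0605), with DESeq2 (0.144), without a filter (0.14) and whenever 1 library was left out, apart from control 2. The catalytic subunits cytochrome c1 (CYC1) and the Rieske protein (UQCRFS1) had log2 fold changes of 0.04 and -0.02 and were not called. UQCRHL, a copy of UQCRH, carried 9.76% of the summed TPM of the pair with control siRNA and 9.59% with HOTAIR-N siRNA, and reads of such near-identical copies may be divided arbitrarily between them.

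CYCS, which encodes the carrier between complexes III and IV and also triggers apoptosis when it leaves mitochondria, was the member with the largest rise. It had 166.8, 176.4 and 146.5 CPM with control siRNA and 240.5, 280.3 and 284.5 CPM with HOTAIR-N siRNA. The lowest knockdown library, HOTAIR-N 1, was above the highest control. The rise was 1.64-fold (log2 fold change 0.72, SE 0.0743, adjusted p 3.04e-06) and ranged from 0.64 to 0.79 on the log2 scale as each library was left out. On the per-length scale CYCS was low, 55.8 ± 5.38 TPM (SD, n = 3) with control siRNA, against medians of 218.4 TPM over the 10 complex III genes and 352.8 TPM over the 19 complex IV genes. TPM divide by transcript length, and the annotated CYCS transcript has 5538 bases. By counts CYCS was not low, with 163.3 CPM with control siRNA and 216 CPM over all 6 libraries. Medians over all 6 libraries were 144 CPM in complex III and 129 CPM over the 14 tested complex IV genes. Processed copies of CYCS are common in the human genome, so part of its reads may belong to them.

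**Figure D2:**
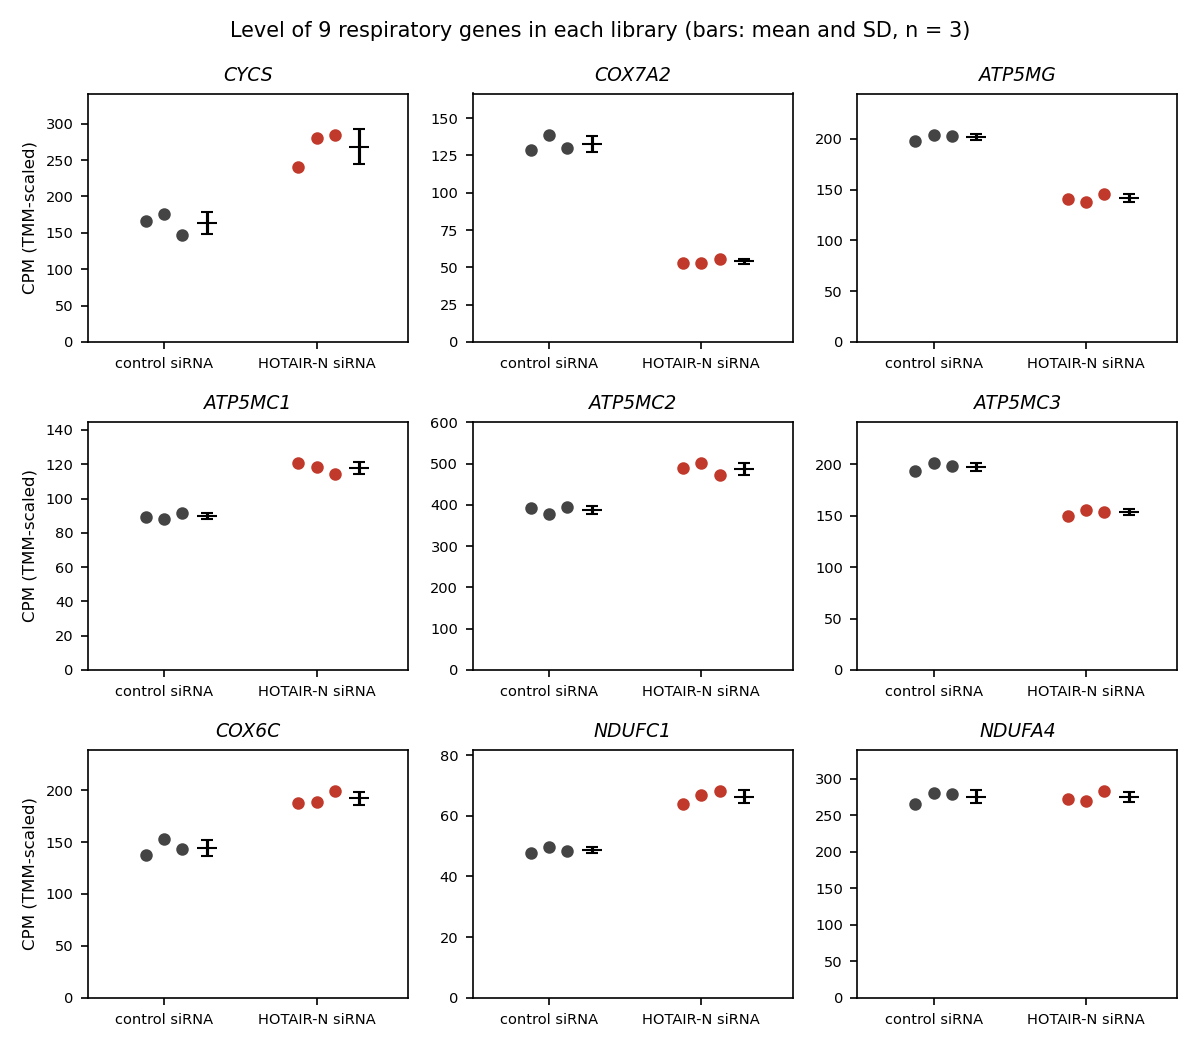
TMM-scaled CPM of 9 genes in each library (dots, 3 per group) with the group mean and SD beside them; every y axis starts at 0. The groups are apart in all panels except NDUFA4, whose control values of 265 to 281.2 CPM span most of its knockdown values of 269.4 to 283.4 CPM.

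Complex IV reduces oxygen to water. Of its 19 genes, 14 were tested, and 3 were higher, 3 lower and 8 not called, with a median log2 fold change of -0.03 that turned to 0.07 with library totals, to 0.03 with upper-quartile scaling and to 0.0025 without control 3 or HOTAIR-N 3. COX7A2, the form of a small accessory subunit made in most tissues, had 129, 138.8 and 130.1 CPM with control siRNA and 53.19, 52.82 and 55.88 CPM with HOTAIR-N siRNA. The knockdown libraries were close together and far below the controls, at 40.7% of control (log2 fold change -1.3, SE 0.0501, adjusted p 5.61e-10). Among the scalings tried, the smallest fall was by 1.2 on the log2 scale, with library totals. Set against the median of the other complex IV genes in the same library, COX7A2 went from -0.05 on the log2 scale to -1.44, a difference that no scaling of whole libraries can alter.

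The other complex IV changes were small. COX6C had 137.4, 153 and 143 CPM with control siRNA and 187.8, 189 and 199.2 CPM with HOTAIR-N siRNA, a 1.33-fold rise without overlap (adjusted p 1.06e-05). COX7C and COX7B, further small subunits around the catalytic core, each rose 1.19-fold (adjusted p 0.000681 and 0.00053). COX7A2L, a COX7A relative that joins complexes III and IV into supercomplexes, fell by 0.20 on the log2 scale (adjusted p 0.00472), a call that ended with library totals (adjusted p 0.0943). COX4I1, COX5A, COX5B, COX6A1, COX6B1 and COX8A were not called, and their log2 fold changes ran from -0.11 for COX8A to 0.09 for COX6B1. COX4I1 and COX8A were called lower with DESeq2 size factors (adjusted p 0.035 and 0.0399) and without control 2 (log2 fold changes -0.12 and -0.15, adjusted p 0.0135 and 0.00744), and COX5A and COX6B1 were called higher with library totals (adjusted p 0.0342 and 0.0014). NDUFA4, named for complex I and counted here as a complex IV subunit, had a log2 fold change of 0.00 (SE 0.0411, adjusted p 0.999), or 0.10 with library totals, which was called (adjusted p 0.0401).

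The tissue-restricted COX paralogs were nearly silent, with 1 exception. COX4I2, COX6A2 and COX8C had 0 counts in all 6 libraries. COX7A1, the form of heart and skeletal muscle, had 0 counts in 5 libraries and 2 in HOTAIR-N 2, and COX6B2, a testis form, had 3 counts over the controls and 6 over the knockdown libraries. COX7B2, whose normal expression is largely in testis, was well expressed in T47D. It had 16.64, 20.13 and 17.04 CPM with control siRNA and 15.56, 14.3 and 16.02 CPM with HOTAIR-N siRNA (log2 fold change -0.23, adjusted p 0.0267). The highest value was in control 2, and the call ended without that library (adjusted p 0.0837), without HOTAIR-N 2 (0.0959), with library totals (0.166) and with upper-quartile scaling (0.0785). Per length, COX7B2 stood at 89.1 ± 8.66 TPM and COX7B at 623.4 ± 15.3 TPM with control siRNA (SD, n = 3). NDUFA4L2, a hypoxia-responsive relative of NDUFA4, stood at 0.747 TPM and was not called.

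ATP synthase has a catalytic head (F1), a stalk, a rotor ring of c subunits and further membrane subunits. Of its 20 genes, 19 were tested, and 5 were higher, 3 lower and 11 not called. In the head, the catalytic beta subunit ATP5F1B had 1707, 1765 and 1727 CPM with control siRNA and 1455, 1450 and 1484 CPM with HOTAIR-N siRNA. It fell to 84.4% of control without overlap (log2 fold change -0.24, SE 0.0303, adjusted p 1.47e-05). Its partners in the head, the alpha subunit ATP5F1A and the gamma subunit ATP5F1C, had log2 fold changes of -0.03 and 0.04 and were not called, although ATP5F1C was called higher with library totals (0.14, adjusted p 0.0207). The stalk genes ATP5PB, ATP5PD, ATP5PF and ATP5PO were not called and lay between -0.09 and 0.04. With library totals ATP5PB and ATP5PF were called higher (adjusted p 0.00785 and 0.0331), and ATP5PO was called lower without control 1 or HOTAIR-N 3 (0.0465 and 0.0425).

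In the membrane part, ATP5MG, which encodes subunit g at the dimer interface, had 198.3, 203.9 and 202.4 CPM with control siRNA and 140.8, 137.6 and 145.5 CPM with HOTAIR-N siRNA. It fell to 70.1% of control without overlap (log2 fold change -0.51, SE 0.0411, adjusted p 3.03e-07). Of the other 4 membrane subunit genes, ATP5MF rose by 0.13 on the log2 scale (adjusted p 0.0295), a call that ended with DESeq2 (0.0912), without a filter (0.0808) and without control 1, control 3 or HOTAIR-N 1. The genes ATP5MD, ATP5ME and ATP5MPL were not called, but were called higher with library totals (adjusted p 0.0037, 0.00318 and 0.0067). ATP5IF1, which inhibits ATP hydrolysis by the enzyme, had 120, 124.2 and 128.6 CPM against 150.6, 141.4 and 153.1 CPM, a 1.19-fold rise (adjusted p 0.000416). ATP5S, now named DMAC2L and linked to assembly of the enzyme, had 10.37, 10.45 and 8.964 CPM against 13.91, 14.67 and 15.87 CPM, a 1.49-fold rise (adjusted p 4.87e-05). All knockdown libraries were above all controls for both genes.

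The 3 subunit c genes, whose products differ in the import sequence and share the mature protein, did not move together. ATP5MC1 had 89.32, 88.09 and 91.47 CPM with control siRNA and 120.8, 118.6 and 114.3 CPM with HOTAIR-N siRNA, a 1.32-fold rise (adjusted p 6.66e-06). ATP5MC2 had 392.8, 376.8 and 393.8 CPM against 488.7, 501.8 and 472.9 CPM, a 1.26-fold rise (adjusted p 8.54e-06). ATP5MC3 had 193.4, 201.4 and 198.1 CPM against 150, 155.7 and 153.9 CPM, or 77.5% of control (adjusted p 5.13e-06). The groups did not overlap in any of the 3 genes, and each call held under every scaling, tool, filter and omission run.

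Shares within a paralog set do not depend on the scaling of libraries. ATP5MC2 made up 73.4% ± 0.414 of the summed TPM of the subunit c genes with control siRNA and 74.7% ± 0.344 with HOTAIR-N siRNA (SD, n = 3). ATP5MC1 went from 19.6% ± 0.186 to 20.9% ± 0.365 and ATP5MC3 from 7.01% ± 0.289 to 4.42% ± 0.102. Their summed level was 2067 ± 55.1 TPM with control siRNA and 2599 ± 53.7 TPM with HOTAIR-N siRNA. In the COX7A set, COX7A2 went from 75.2% ± 0.157 to 58.6% ± 0.655 and COX7A2L from 24.8% ± 0.157 to 41.4% ± 0.689, while the summed level went from 611.9 ± 19.8 to 325.5 ± 14.6 TPM. COX7B2 went from 12.5% ± 0.923 to 9.33% ± 0.203 of its pair with COX7B. The groups did not overlap in any of these shares, and 3 libraries against 3 allow no exact permutation p below 0.1.

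**Figure D3:**
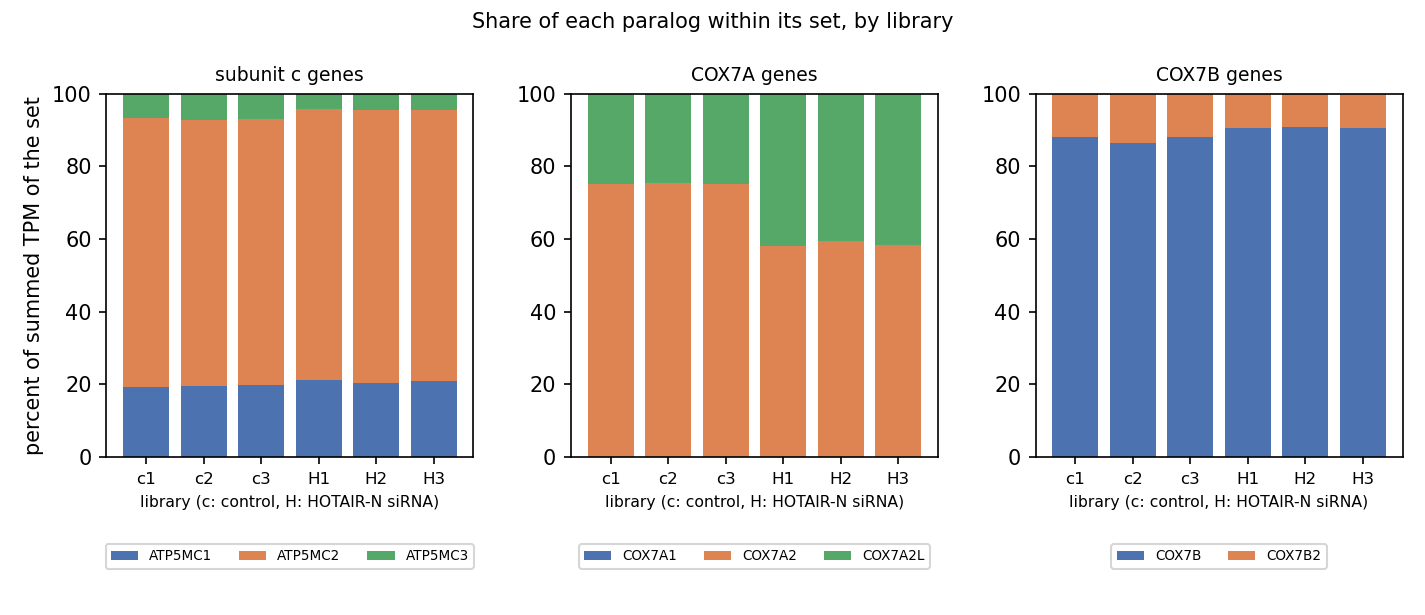
Percent of the summed TPM of each paralog set (y axis) carried by each gene, as stacked bars, one per library (c1 to c3 control siRNA, H1 to H3 HOTAIR-N siRNA). The COX7A2 portion is 75.1% to 75.4% in the controls and 58.0% to 59.3% in the knockdown libraries.

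Levels per length differed widely between subunits of 1 complex. With control siRNA, 83 of the 90 subunit and paralog genes had at least 10 TPM. The highest were ATP5F1E at 1981 ± 63.4 TPM and ATP5F1B at 1903 ± 25.9 TPM (SD, n = 3), whose control libraries lay just apart, followed by COX8A at 1649 ± 92.9 TPM and ATP5MC2 at 1517 ± 47.7 TPM. Median levels over all listed genes were 258.4 TPM in complex I, 229.2 in complex II, 218.4 in complex III, 352.8 in complex IV and 556.4 in complex V. Over genes with at least 10 TPM, the median was 579.1 for the 13 of complex IV and 621.3 for the 19 of complex V. The lowest tested subunit of complex I per length was NDUFA5 at 22.5 ± 1.64 TPM, and its main transcript is annotated at 5581 bases. By counts it was not the lowest, with 66.34 CPM with control siRNA against 13.51 for NDUFA3 and 21.67 for NDUFA7. The summed TPM of complex I went from 9581 ± 137 to 10430 ± 54.4, of complex III from 2449 ± 7.12 to 2594 ± 10.6, of complex IV from 9131 ± 124 to 9297 ± 15.8 and of complex V from 13570 ± 220 to 14390 ± 204. TPM are relative to the whole library and so move as the library totals do, and not every direction held on the TMM scale. There the summed CPM of complex V was 5366, 5627 and 5495 with control siRNA and 5321, 5265 and 5390 with HOTAIR-N siRNA, and that of complex IV 2282, 2298 and 2333 against 2287, 2267 and 2250, so both means were lower with HOTAIR-N siRNA. The sums of complexes I and III were higher in every knockdown library on both scales.

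**Figure D4:**
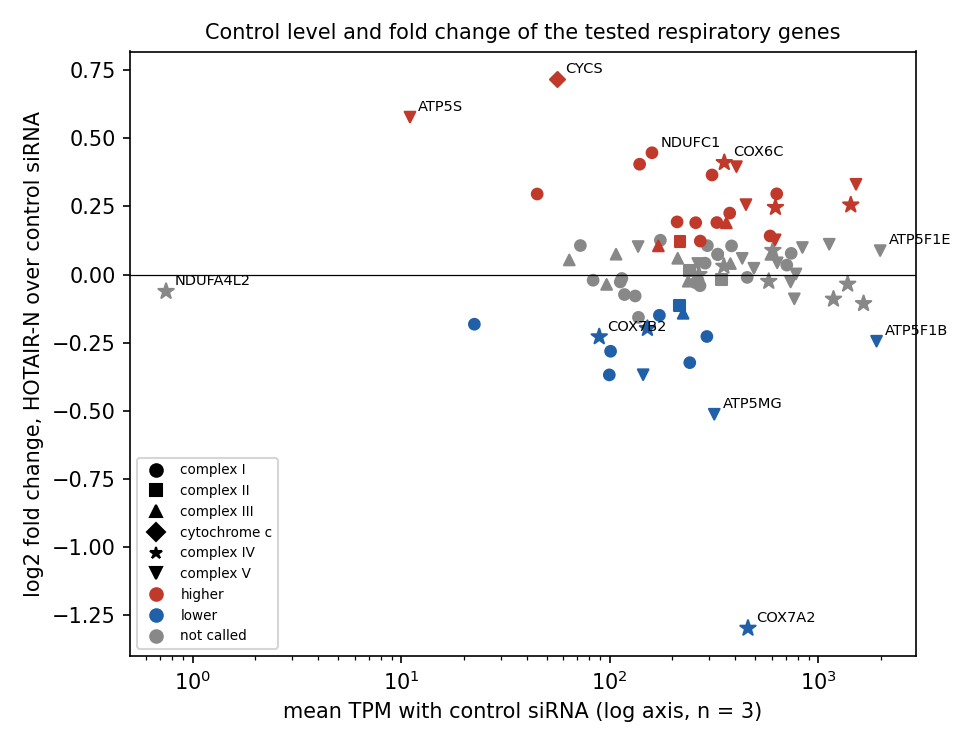
Mean TPM with control siRNA (x axis, log scale, n = 3) against log2 fold change (y axis) for 83 of the 84 tested subunit and paralog genes, with the complex as marker shape and the edgeR call as colour. COX7A2, at 460.3 TPM, is the single gene below -1, and the most abundant genes, ATP5F1E and ATP5F1B, lie at 0.09 and -0.24.

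Control 2 and HOTAIR-N 3 tended to depart from their groups in the same genes. These 2 libraries were both the highest of their group in 41 of the 89 genes (46.1%) and both the lowest in 29 (32.6%), against 29.3% and 25.5% of all tested genes. Over these genes, the deviations of the 2 libraries from their group means had a Pearson r of 0.661, and 0.217 over all tested genes. Both values were the largest r of any control paired with any knockdown library. Control 2 with HOTAIR-N 2 had -0.655 over these genes, and deviations within a group sum to 0, which links such values. Control 1 was the lowest of its group in 46 of the 89 genes and HOTAIR-N 2 in 42. These are descriptions across genes, which are not independent. Without both libraries 32 of the genes were higher and 19 lower, beside 36.6% and 37.2% of all tested genes. The median log2 fold change over all tested genes was then 0.00. The source of the shared departure was not tested.

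**Figure D5:**
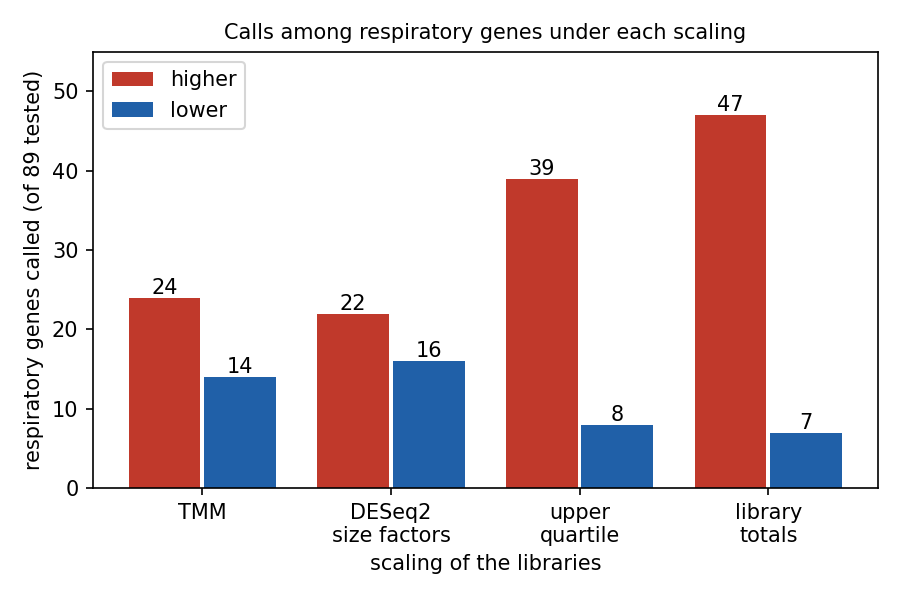
Number of the 89 tested genes called higher or lower (y axis) under 4 scalings of the libraries (x axis). Calls higher go from 22 to 47 and calls lower from 16 to 7 across the scalings, so the balance of directions is not fixed by these data.

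Of the 48 genes with more than 1 annotated transcript, 44 could be tested for a change in transcript shares, and 0 were called by edgeR's diffSpliceDGE with Simes p, against 6.42% of 7465 genes tested. At an unadjusted p under 0.05 there were 2, ATP5IF1 and NDUFB5. A limma test of log2 shares called 4, ATP5IF1, NDUFB5, NDUFS4 and SDHC, where it called 13.7% of all 7465 genes tested. The diffSpliceDGE test recovered few planted changes on simulated data, so the count of 0 does not show that the shares were unchanged. By the deposited percent of each transcript in its gene, NM_178191 of ATP5IF1 held 9.85%, 10.16% and 10.1% with control siRNA and 6.61%, 6.77% and 7.56% with HOTAIR-N siRNA. In NDUFS4 the noncoding transcript NR_134473 held 1.56%, 1.38% and 1.54% against 4.26%, 5.87% and 5.44%. The coding transcript of COX7A2, NM_001865, held 97.3% ± 0.649 and 97.1% ± 0.327, so this transcript carried most of the gene's reads in both groups.

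Assembly factors build the complexes and are not subunits themselves. Shares called here stand beside 71.1% of all tested genes: 55% for complex I factors, 66.7% for complex III, 61.5% for complex IV and 40% for ATP synthase, and all 3 tested for complex II. For complex I, 5 of 20 were higher and 6 lower, among them TIMMDC1 (2.15-fold), TMEM186 (1.67-fold) and COA1 (70.7% of control). For complex II, SDHAF2 (1.24-fold) and SDHAF1 (1.18-fold) were higher and SDHAF4 (62.1%) lower of 3 tested. For complex III, 1 of 6 was higher and 3 lower: UQCC1 fell to 47.4%, UQCC2 to 73.1% and UQCC3 to 64.9% of control, and the 3 proteins act in making cytochrome b. UQCC1 had 36.06, 36.01 and 37 CPM with control siRNA and 16.96, 16.92 and 17.79 CPM with HOTAIR-N siRNA (adjusted p 6.29e-09). For complex IV, 9 of 26 were higher and 7 lower, with the copper chaperone SCO1 at 2.05-fold, COX14 at 1.34-fold and CMC2 at 68.3%. For ATP synthase, 2 of 5 were higher, TMEM242 (1.27-fold) and FMC1 (1.57-fold), and 0 lower, while TMEM70, which assembles the c ring, was not called. ATP5S was also on this list of 6 but is left out of these counts, since it is counted with the subunit genes, where it was higher (1.49-fold).

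Regulators of mitochondrial biogenesis moved in both directions, 9 of 20 higher and 8 lower, so that 85% were called against 71.1% of all tested genes. The coactivator PPARGC1A, whose product drives respiratory gene expression, had 5.183, 5.48 and 5.012 CPM with control siRNA and 11.28, 11.41 and 12.14 CPM with HOTAIR-N siRNA, a 2.22-fold rise (adjusted p 7.97e-08). Its relative PPARGC1B had 17.01, 15.81 and 17.41 CPM against 9.221, 10.47 and 11.01 CPM and fell to 61.0% of control (adjusted p 5.85e-06), and the third coactivator of the family, PPRC1, was not called (log2 fold change 0.07), although it was with library totals (adjusted p 0.0124) and with upper-quartile scaling (0.0421). Of the 4 listed transcription factors that bind DNA at respiratory gene promoters, YY1 fell to 61.8%, NRF1 to 69.2% and GABPA to 73.2% of control, while the estrogen-related receptor ESRRA rose 1.22-fold (adjusted p 0.00221). MTERF4, which acts on mitochondrial ribosomes, rose 1.47-fold. TFAM, which helps to start transcription of mitochondrial DNA and packages it, had a log2 fold change of 0.02 and was not called.

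Promoters of the subunit genes were searched for the sites of YY1, NRF1 and GABPA, on both strands. The sequences are RefSeq's for GRCh38.p14, 250 bases before to 50 after each start, and 71 of the 90 subunit and paralog genes matched. The NRF1 core, GCATGCGC, was in 14 of the 71 (19.7%) and in 3.27% of all 27305 promoters. The ETS site of GABPA, CCGGAAG, was in 20 (28.2%) against 10.7%, and the YY1 site, AAGATGGCG, in 8 (11.3%) against 1.85%. By call, the ETS site was in 2 of 18 higher, 1 of 12 lower and 17 of 38 uncalled genes. The NRF1 core was in 4, 1 and 9 of the same groups and the YY1 site in 1, 4 and 3. A match is a run of letters and not a measured binding site, and these counts carry no test. Shown, after their values were seen, are the promoters of CYCS (chr7:25125211-25125510, minus strand) and of the 2 subunit c genes that rose, ATP5MC1 (chr17:48892537-48892836, plus strand) and ATP5MC2 (chr12:53676034-53676333, minus strand), with the NRF1 core in capitals where present.
CYCS: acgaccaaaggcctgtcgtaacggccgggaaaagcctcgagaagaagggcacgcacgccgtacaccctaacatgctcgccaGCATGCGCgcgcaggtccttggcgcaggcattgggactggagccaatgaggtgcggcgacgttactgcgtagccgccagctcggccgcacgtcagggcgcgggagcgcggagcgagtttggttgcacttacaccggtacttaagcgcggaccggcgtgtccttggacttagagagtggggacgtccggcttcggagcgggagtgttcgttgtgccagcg
ATP5MC1: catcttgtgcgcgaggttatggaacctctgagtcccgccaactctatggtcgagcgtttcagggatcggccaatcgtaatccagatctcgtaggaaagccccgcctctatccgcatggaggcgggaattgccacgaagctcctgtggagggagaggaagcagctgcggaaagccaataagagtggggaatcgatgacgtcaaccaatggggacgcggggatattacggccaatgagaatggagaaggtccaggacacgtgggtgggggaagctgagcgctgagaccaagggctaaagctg
ATP5MC2: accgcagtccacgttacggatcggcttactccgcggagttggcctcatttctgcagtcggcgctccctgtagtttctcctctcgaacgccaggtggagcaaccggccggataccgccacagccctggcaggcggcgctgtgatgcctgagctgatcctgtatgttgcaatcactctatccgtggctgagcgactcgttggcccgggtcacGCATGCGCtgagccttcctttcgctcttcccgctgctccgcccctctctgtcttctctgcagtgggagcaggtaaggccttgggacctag
The core starts at position -169 from the annotated start in CYCS and at -40 in ATP5MC2. ATP5MC1 holds none of the 3 motifs in this window, and its log2 fold change, 0.40, was close to that of ATP5MC2, 0.33. The subunit c gene that fell, ATP5MC3, had no matched promoter sequence and could not be searched.

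The 3′ UTRs were searched for GACCAAT and its shorter form ACCAAT, since an earlier examination of these same fold changes had picked the 7-letter run as going with lower genes. It is therefore no independent evidence for any gene here. GENCODE transcripts (GRCh38) matched to the deposited RefSeq ones gave a UTR for 79 subunit genes, searched up to the deposited transcript length plus 100 bases, a limit set after carriers had been seen. The 7-letter run was in 1 of the 79 (1.27%), ATP5MG, and in 5.3% of 13071 tested genes. The UTRs of the subunit genes were shorter, with a median of 214 bases against 1083. The 6-letter run was in 5 (6.33%) against 21.1%: ATP5MG, COX7A2 and NDUFA10, which fell, NDUFC2, which was not called, and SDHC, which rose. Searched over whole GENCODE UTRs, 83 genes had a UTR, and 2 carried the 7-letter and 10 the 6-letter run. The second carrier of the 7-letter run was then ATP5S, which rose. The other added carriers of the 6-letter run were UQCRC1, which fell, and NDUFB5, NDUFS1 and NDUFV3, which were not called. The short stretches around the run (capitals) are shown for the members with the largest falls, COX7A2 (chr6:75237805-75237810, minus strand) and ATP5MG (chr11:118409100-118409106, plus strand, from base 2 of the UTR).
ATP5MG: aGACCAATctttaacatctgattatatttg
COX7A2: gtagtaactgccACCAATaaagcagtcttt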

How the data were processed

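RNA from 6 T47D cultures was sequenced after removal of ribosomal RNA. Per the submitters' processing notes, STAR 2.6.0c and RSEM 1.3.0 were used with hg19, and no settings are recorded there. Per the file headers, the deposited gene and transcript tables hold RSEM expected counts, TPM and FPKM, and the transcript tables also give the percent of each transcript in its gene. FPKM were not used. The labels record no strand setting for the counting, which leaves antisense genes, readthroughs and near-identical copies uncertain.

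Expected counts were rounded, filtered with filterByExpr (minimum count 10, total 15), and scaled by TMM. The main test was the quasi-likelihood F test of edgeR 4.0.16 in R 4.3.3. The Benjamini-Hochberg adjustment ran over all 14919 tested genes, and calls were made at an adjusted p under 0.05. Every adjusted p of a gene is from this test unless DESeq2 1.42.0 or limma 3.58.1 is named or a changed setting is given. CPM are divided by TMM-scaled totals. Transcript usage was tested with diffSpliceDGE. P-values measure the spread between 3 transfections of 1 cell line. Summed TPM, shares and medians are descriptions without a test.

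Both tests were tested on simulated data with planted changes. The gene test recovered 38% of planted 1.2-fold changes, 82% of 1.5-fold, 78% of 2-fold and 92% of 4-fold changes. It also called 11 genes without a planted change. The usage test recovered few planted changes, and none of its counts of 0 is read as absence.

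The members and the lists were chosen with earlier results of these data known. Named by rule were the 3 largest called rises and falls of each complex, its catalytic subunits, paralog sets and the 3 members of each other list with the smallest p. Other genes are named to account for a count or because they were singled out after their values were seen. The values of 1 complex I gene are not reported here. The placing of NDUFA4 in complex IV is a textbook assignment. Alternatives were other scalings, DESeq2, limma-voom, other filters, the replicate number as a block, omission of each library or of control 2 with HOTAIR-N 3, a stricter threshold, a test against a 1.2-fold change and, added after seeing the data, the search of whole 3′ UTRs.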

Additional observations from a re-analysis of the deposited data

How the results depend on the processing

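Of the 84 tested subunit and paralog genes, 43 kept their side of the threshold under every scaling, tool, filter, block and omission run, and 41 did not. Of the 38 called, 25 kept the call in all of them, COX7A2, CYCS, ATP5MG and the 3 subunit c genes included, and 0 reversed. The other 13 are named with their limits in the results. Of 34 named genes of other lists, 3 changed their call: PDHA1 lost it with library totals, PPRC1 gained it with library totals and upper-quartile scaling, and CS was called lower with DESeq2 size factors (adjusted p 0.0463), with DESeq2 and without HOTAIR-N 3, among others. Genes higher numbered 47 with library totals, 39 with upper-quartile scaling and 9 in the test against a 1.2-fold change. Of all tested genes, 43.4%, 40.3% and 23.9% were higher there. Genes lower numbered 7, 8 and 4 there, and 9 at an adjusted p under 0.01, beside 28.6%, 31.2%, 22.2% and 30.3% of all tested genes. Omitting single libraries gave 19 to 30 higher and 11 to 16 lower. Over all tested genes these omissions gave 33.1% to 35.8% higher and 32.3% to 34.8% lower. Median log2 fold changes of complexes I, II, III, IV and V were 0.172, 0.0967, 0.155, 0.0676 and 0.158 with library totals, and those of I, II, III and V were 0.131, 0.0559, 0.114 and 0.117 with upper-quartile scaling. Over all tested genes the median was 0.116 and 0.0753 there. Complex I had 0.0499 with DESeq2, and 0.044 to 0.0773 as single libraries were omitted, the lowest without control 1. Usage calls were 4 with limma shares and 0 to 1 as single libraries were omitted, the 1 being NDUFA10 without HOTAIR-N 2. The cause of these shifts was not tested.

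Replicate numbers did not pair the libraries (r of -0.0357, -0.205 and -0.121 over all genes for numbers 1, 2 and 3). With the replicate number as a block, 19 genes were higher and 11 lower, beside 34.2% and 32.9% of all tested genes. The calls of NDUFA6, NDUFS5, NDUFV2, SDHA, SDHC, UQCRC1, UQCRQ and ATP5MF then ended.

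Genes within 1.2-fold are limited by depth and replicate number: an uncalled gene is not shown to be unchanged.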

Other observations

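Of 18 citric acid cycle and pyruvate dehydrogenase genes, 5 were higher and 8 lower by edgeR, so that 72.2% were called beside 71.1% of all tested genes. In the pyruvate dehydrogenase complex, which makes acetyl-CoA from pyruvate, genes moved in both directions. PDHX, which tethers one of its enzymes, had 45.11, 47.14 and 44.65 CPM with control siRNA and 100.6, 106 and 110.8 CPM with HOTAIR-N siRNA (2.32-fold), DLD rose 1.91-fold and DLAT 1.33-fold, whereas PDHA1 of the first enzyme fell by 0.17 on the log2 scale (adjusted p 0.00264, but 0.122 with library totals) and PDHB was not called (-0.04). DLAT, PDHA1 and PDHB were named after their values were seen. SUCLA2, a subunit of succinyl-CoA synthetase, had 49.31, 54.53 and 51.92 CPM against 27.17, 26.81 and 31.4 CPM, or 54.8% of control. Citrate synthase (CS), also named after its value was seen, was not called (log2 fold change -0.08).

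Of 16 other electron carriers and coenzyme Q genes, 4 were higher and 6 lower, so that 62.5% were called, below the share over all tested genes. This list also holds NDUFAB1, whose symbol lacks the number required of the complex I genes above. PDSS2, which makes the tail of coenzyme Q, had 11.23, 11.67 and 11.08 CPM with control siRNA and 5.269, 4.595 and 4.722 CPM with HOTAIR-N siRNA, or 43.0% of control (adjusted p 7.33e-08). CYB5B, an outer-membrane cytochrome b5, fell to 70.8%, and ETFA, which carries electrons from fatty acid oxidation, rose 1.24-fold. In each of these 3 genes the knockdown libraries did not overlap the controls.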
